A study of Ovis aries and Bos taurus with 6 samples.

Results

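The stromal and vascular miRNAs described here are miR-143, miR-145, miR-199a, miR-199b, miR-214, miR-126, miR-221 and miR-222, measured as small RNA of extracellular vesicles (EVs, membrane particles shed by cells) from milk. Members were the rows of either deposited count table whose name, without species prefix and arm suffix, was one of these 8 names, and sheep rows without a miRBase name whose listed sequence matched the textbook mature sequence of one of them over at least 17 bases. They made up 22 of 1464 rows, 12 of 685 in the sheep table and 10 of 779 in the cow table, and gave 13 miRNAs when arms were kept apart. Of these, 8 were in both tables, 3 in the sheep table only (miR-145-3p, miR-214-5p and miR-222-5p) and 2 in the cow table only (miR-199a-5p and miR-199b-5p). The study compared 3 libraries from Ordos fine wool sheep with 3 from Holstein cows, all females in mid lactation and with no treatment named. EVs were precipitated from the milk with the Total Exosome Isolation kit for body fluids, so that vesicles of all cells were collected in 1 fraction. Because the cow samples were made for an earlier study by the same group, effects of species, of breed and of study cannot be told apart below. The labels name 3 sheep and do not say how many cows gave the milk, so p-values measure the spread between these libraries only.

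miR-143 and miR-145 are made from a shared transcript and are known from smooth muscle, pericytes and fibroblasts. miR-199a and miR-214 also share a transcript, which runs antisense within a dynamin gene, and mark mesenchymal cells such as fibroblasts. miR-126 lies in an intron of EGFL7 and is the classic miRNA of endothelial cells, also carried by platelets, while the paired miR-221 and miR-222 are found in endothelium, smooth muscle and many dividing cells, where they act on KIT and CDKN1B. A miRNA hairpin is cut into a 5p and a 3p arm, which are usually not kept alike in the silencing complex. Bases 2 to 8 of the mature arm, the seed, guide it to its targets.

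The sequences below are those the sheep table lists for the members on which the arm and partner comparisons turn, with bases 2 to 8 of the listed sequence in capitals.
miR-126-3p: tCGTACCGtgagtaataatgc
miR-126-5p: cATTATTActtttggtacgc
miR-221-3p: aGCTACATtgtctgctgggttt
miR-222-3p, larger row: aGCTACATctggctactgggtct
miR-222-3p, smaller row: tGCTACATctggctactgga
miR-199a-3p: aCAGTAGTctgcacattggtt
miR-214-3p: tACAGCAGgcacagacaggcagt
The arms of miR-126 can pair with each other over a run of 10 bases and have different seeds. miR-221-3p and miR-222-3p were alike over their first 8 bases, and GCTACAT was the seed of these 3 rows and of no other sheep row. The smaller miR-222-3p row differed from the larger by A1T and G20A, counted from the 5′ end, and held 4, 1 and 2 counts in sheep replicates 1, 2 and 3, which were summed with those of the larger row. The listed miR-214-3p starts upstream of its usual first base, so its capitals are not the usual seed. miR-199a-3p has the same mature sequence as miR-199b-3p, so counts under that name can come from either. Cow rows carry no sequence in the deposited table. Of the 12 sheep rows, 3 carried a miRBase name (miR-143-3p, miR-199a-3p and miR-221-3p) and 9 were named by sequence. RefSeq's sheep annotation (ARS-UI_Ramb_v3.0) held an entry for MIR143, which lies within the lncRNA LOC114114896 with IL17B and CSNK1A1 as its neighbours. It also held MIR199A, which lies within DNM3, and MIR221, which lies within the lncRNA LOC105605445.

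The sheep libraries held 1073914 to 2078695 miRNA counts and the cow libraries 328527 to 556489. A count of 0 allows up to 1.44 to 2.79 CPM (counts per 1000000 miRNA counts of the library) in sheep and 5.39 to 9.13 in cow, from a floor of 3 counts. Floors and intervals cover counting error only. For the test, 161 miRNAs were joined between species, which covered 93.8% to 97.6% of the counts in sheep libraries but 14.2% to 27.3% in cow libraries, most cow counts being in rows with no joined name. CPM of the whole table and the tested fold changes therefore sit on different scales. Taken on whole-table totals with no normalization factors, the median miRNA shifted by 1.38 on the log2 scale towards sheep. Sheep replicate 1 stood apart from the other sheep libraries: the red blood cell miRNA miR-486 took 7.72% of its counts against 0.0741% and 0.0705%, and the liver miRNA miR-122 took 7.02% against 0.184% and 0.570%. For the members, values that move by much without it are also given without it.

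As a group, the 8 miRNAs were a minor share of the milk EV miRNA in either species. They held 1.41%, 0.292% and 0.543% of all miRNA counts in sheep replicates 1, 2 and 3, and 0.377%, 0.397% and 0.324% in cow replicates 1, 2 and 3. The cow libraries lay close together and within the sheep range. The mean was 0.748% ± 0.586 (SD, n = 3) in sheep and 0.366% ± 0.0377 (n = 3) in cow, a log2 ratio of 1.03 (two-sided exact permutation p = 0.4, where 3 against 3 allows no p below 0.1). Without sheep replicate 1 the log2 ratio was 0.19. The order turned when only the joined miRNAs were taken as the total, at 0.791% ± 0.628 for sheep and 1.83% ± 0.413 for cow libraries (exact permutation p = 0.2), and the sheep mean on that total was 0.437% without replicate 1.

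Within the group, miR-143-3p was the largest in every sheep library and miR-126-3p in every cow library. miR-143-3p made up 46.7%, 51.9% and 34.8% of the group's counts in sheep and 11.7%, 20.3% and 28.7% in cow, with no overlap. miR-126-3p was at 31.1%, 17.1% and 22.6% in sheep and 40.9%, 29.7% and 31.3% in cow, where the ranges met. miR-126-5p took 2.72%, 0.115% and 0.0343% in sheep but 32.9%, 23.8% and 22.1% in cow, the widest gap between species among these shares. The shares of a library add up to a whole, so the large miR-126-5p share lowers the other cow shares. With miR-126-5p left out of the sum, the miR-143-3p share of cow replicate 3 would exceed that of sheep replicate 3. miR-222-3p took 6.33%, 7.65% and 17.5% in sheep and 1.21%, 2.08% and 0.796% in cow, again with no overlap. In cow replicates 1 and 2 miR-126-5p came second, and in cow replicate 3 miR-143-3p did. miR-221-3p (14.1% ± 4.41 against 10.6% ± 6.50, n = 3 each) and miR-199a-3p (5.71% ± 2.20 against 4.54% ± 3.58) overlapped. Counts were not divided by length, since the listed sequences were all 20 to 23 bases long, and a share of counts need not equal a share of molecules. In milk EVs fewer vesicles from a cell type and less of a miRNA per vesicle cannot be told apart.

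**Figure D1:**
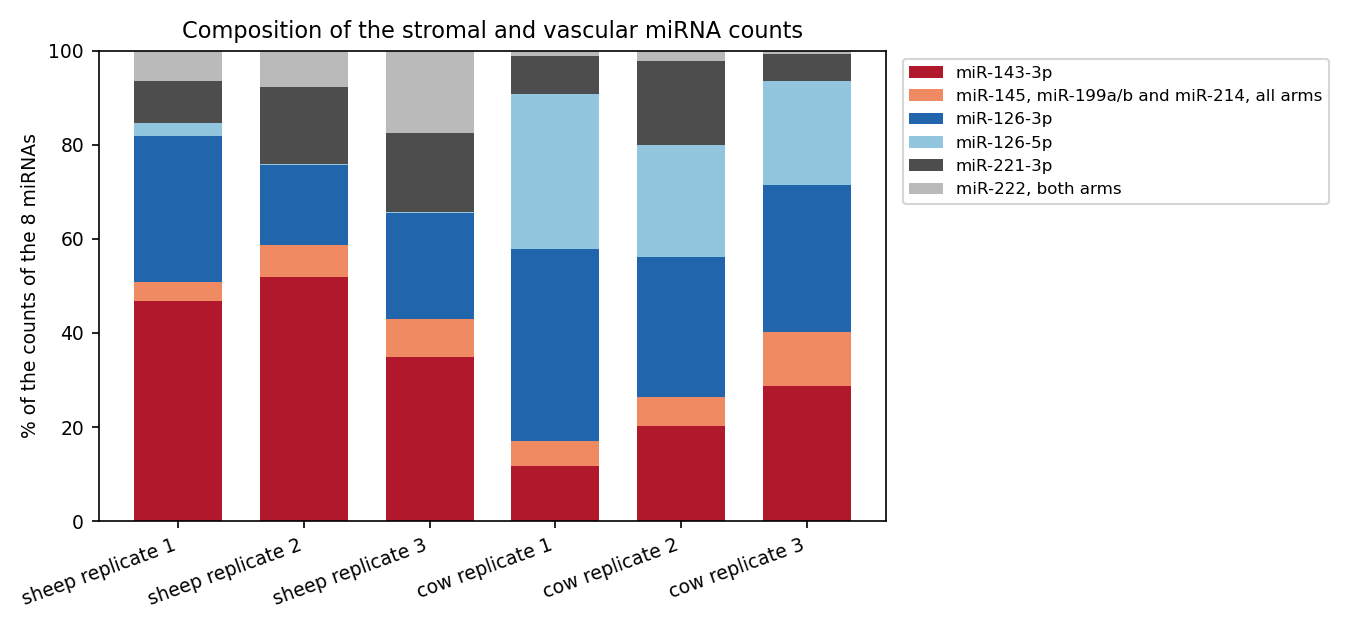
Share of the counts of the 8 miRNAs (percent, vertical axis) that each miRNA or arm held in the 3 sheep and 3 cow libraries, 1 stacked bar per library. The light blue band of miR-126-5p is 22.1% to 32.9% in the cow libraries and at most 2.72% in the sheep libraries, and the red band of miR-143-3p is the largest in every sheep library.

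Among the smooth muscle and fibroblast members, miR-143-3p was the most abundant. It was at 6581, 1513 and 1890 CPM in sheep replicates 1, 2 and 3 and at 441, 805 and 931 CPM in cow replicates 1, 2 and 3. Every sheep library was above every cow library, and sheep replicate 1 was 3.48 times the higher of the other sheep libraries. The means were 3328 ± 2823 and 726 ± 254 CPM (SD, n = 3 each), a ratio of 4.59, and the sheep mean without replicate 1 was 1702. On the scale of the joined miRNAs the log2 fold change, sheep minus cow, was 0.58 ± 0.60 (SE) and did not pass edgeR's quasi-likelihood test (Benjamini-Hochberg adjusted p = 0.427 over the 139 miRNAs tested). It was 0.85 without sheep replicate 1 and 1.27 without cow replicate 3. Its direction depended on the scale, at -0.14 with no normalization factors and 2.20 on whole-table totals with no factors (edgeR adjusted p = 0.0190).

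miR-145, the partner of miR-143, was scarce. miR-145-5p, the arm best known for acting in smooth muscle differentiation, had counts of 25, 5 and 5 in sheep and of 1, 3 and 8 in cow. In CPM these were 22.5, 2.41 and 4.66 in sheep and 3.04, 5.39 and 20.6 in cow, so the groups overlapped across their range. The log2 fold change was -1.74 ± 1.25 (edgeR adjusted p = 0.244), from few counts, and was -0.06 without cow replicate 3. Without any single sheep library it did not pass the filter. miR-145-3p, with a row in sheep only, had 38, 7 and 5 counts, and in sheep replicate 1 was 7.35 times the higher of the other sheep libraries.

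Of the fibroblast pair, miR-199a-3p was above miR-214-3p in every library. miR-199a-3p was at 500, 165 and 431 CPM in sheep and 94.4, 97.0 and 281 CPM in cow, with cow replicate 3 inside the sheep range. The means were 365 ± 177 and 158 ± 107 CPM, and the log2 fold change was -0.36 ± 0.93 (edgeR adjusted p = 0.749), with a sign that turned under 9 of 18 other settings. miR-214-3p had 24, 60 and 3 counts in sheep and 4, 40 and 14 in cow, or 21.6, 28.9 and 2.79 CPM against 12.2, 71.9 and 36.1 CPM, so the groups overlapped. Its log2 fold change was -2.45 ± 1.30 (edgeR adjusted p = 0.125). It was -1.21 without sheep replicate 1, -3.42 without sheep replicate 2, -1.06 without sheep replicate 3 and -1.59 without cow replicate 2, so single libraries carried much of the value.

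The 5p arms of the fibroblast members were seen in 1 table each. miR-199a-5p had 2, 21 and 6 counts in the cow libraries and miR-199b-5p had 27, 18 and 6, or 19.8 ± 16.3 and 43.3 ± 34.7 CPM (SD, n = 3). The arm of miR-199b was the higher in cow replicate 1, the lower in cow replicate 2 and equal in count in cow replicate 3. miR-214-5p was detected with 5 counts in sheep replicate 1 and none in the other sheep libraries.

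Of the arms of the endothelial miRNA miR-126, only the 5p arm was called different between the species. miR-126-3p was at 4386, 499 and 1227 CPM in sheep and 1543, 1179 and 1014 CPM in cow. The sheep values lay on both sides of the cow values, and the log2 fold change was -0.89 ± 0.62 (edgeR adjusted p = 0.234), and -1.09 without sheep replicate 1. miR-126-5p was at 383, 3.37 and 1.86 CPM in sheep, from 425, 7 and 2 counts. In cow it was at 1242, 943 and 714 CPM, from 408, 525 and 277 counts, and every cow library was above every sheep library. miR-126-5p was higher in cow by edgeR's test, with a log2 fold change of -4.70 ± 1.40 (adjusted p = 0.0134). The mean was 129 ± 219 CPM in sheep, 2.61 without replicate 1, and 967 ± 265 in cow. Its sign stayed negative under all 16 other settings that gave a test. The call was lost without cow replicate 1 (-4.25, edgeR adjusted p = 0.0683), without cow replicate 2 (-4.57, adjusted p = 0.0675), with limma on log2(TPM + 10) (-1.20) and on whole-table totals with no factors (-2.90). Without sheep replicate 1 the log2 fold change was -8.67.

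Of miR-221-3p and miR-222-3p, which share a seed and a transcript, only miR-222-3p was called. miR-221-3p was at 1270, 480 and 913 CPM in sheep and 304, 713 and 186 CPM in cow, with cow replicate 2 above sheep replicate 2. Its log2 fold change was -0.23 ± 0.70 (edgeR adjusted p = 0.783) and turned positive under 13 of 18 other settings. miR-222-3p was at 892, 223 and 952 CPM in sheep and 45.7, 82.7 and 25.8 CPM in cow. Every sheep library was above every cow library, with means of 689 ± 405 and 51.4 ± 28.9 CPM (SD, n = 3 each) and a ratio of 13.4. miR-222-3p was higher in sheep by edgeR's test, with a log2 fold change of 2.35 ± 0.95 (adjusted p = 0.0490, close to the threshold of 0.05). The sign stayed positive under all 17 other settings that gave a test. Among other settings, the call was lost with no normalization factors (1.62) and without sheep replicate 3 (2.22), cow replicate 1 (2.53) or cow replicate 3 (2.37). Cow miR-222-3p rested on 15, 46 and 10 counts. The sheep rows of miR-222-3p were named by sequence, whereas the cow row carried a miRBase name. miR-222-5p had 1 count in sheep replicate 3 and none in the other sheep libraries.

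**Figure D2:**
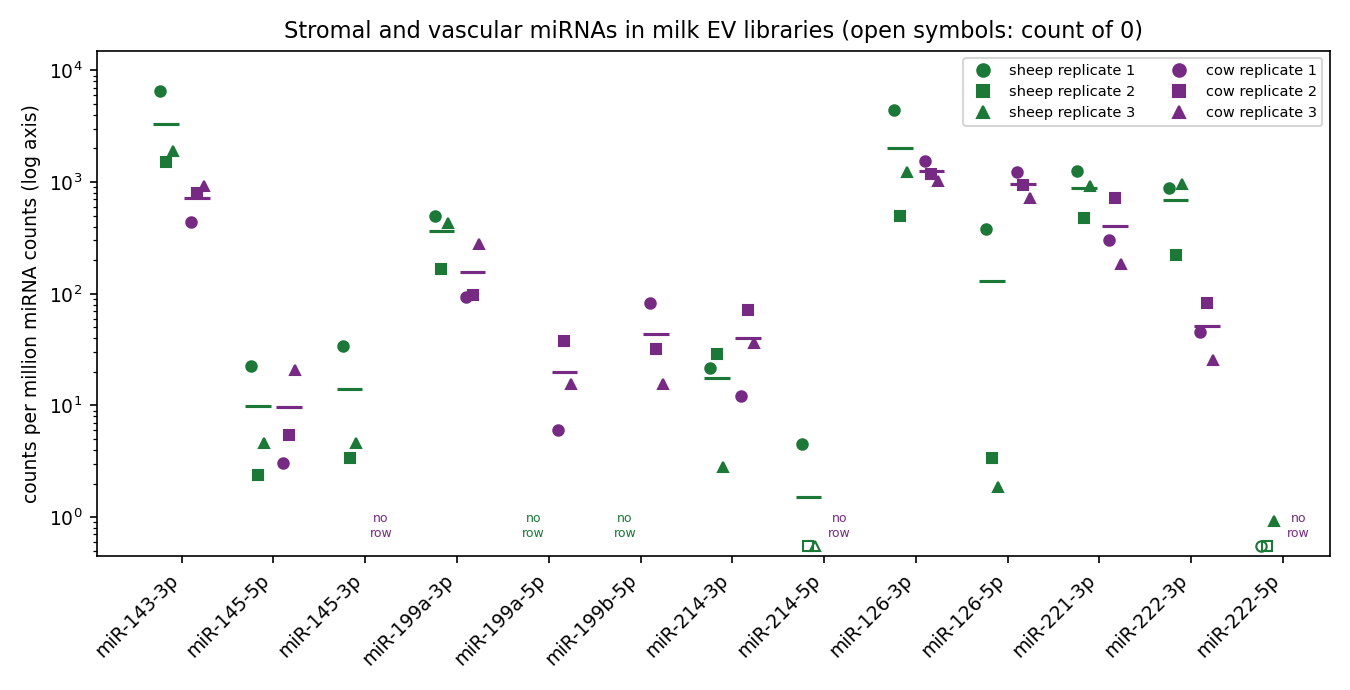
CPM (log axis) of the 13 miRNAs in each library, with sheep in green and cow in purple, replicates 1 to 3 as circle, square and triangle, horizontal lines for group means, and open symbols on the axis for a count of 0. miR-143-3p and miR-222-3p lie higher in all sheep libraries, miR-126-5p in all cow libraries, and "no row" marks a miRNA without a row in that species' table.

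Of the 8 members tested, 1 was called higher in sheep (miR-222-3p), where 32.4% of the 139 miRNAs tested were so called. A single member was called higher in cow (miR-126-5p), where 22.3% of all were. In CPM, 2 of 8 did not overlap and were higher in sheep (46.8% of all miRNAs tested) and 1 of 8 did so in cow (16.5%). With only 8 members, whether these shares differ from those of all miRNAs was not tested. Their median log2 fold change was -0.63, against 0.43 over all miRNAs tested. With limma on log2(TPM + 1) of the deposited TPM the members' median was 2.20 and that of all was 2.51. In that fit 4 members were called higher in sheep (miR-143-3p, miR-199a-3p, miR-221-3p and miR-222-3p), the median miRNA having shifted by 2.72.

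**Figure D3:**
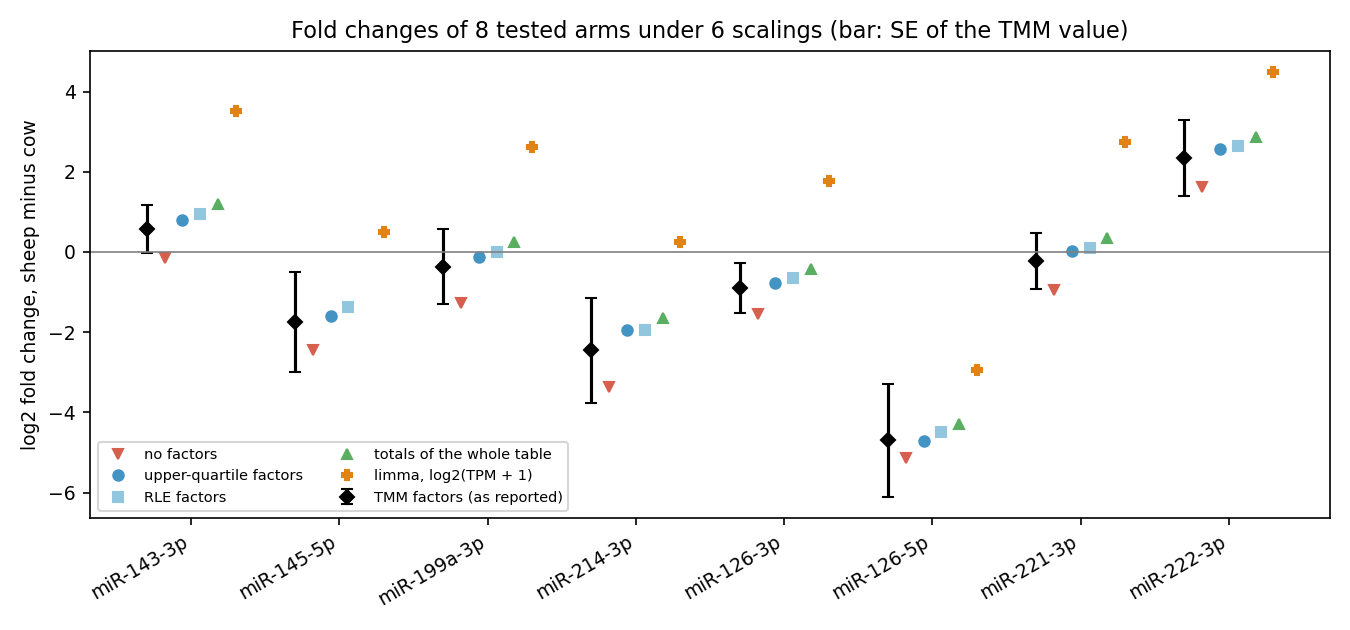
Log2 fold change, sheep minus cow (vertical axis), of the 8 members tested, with edgeR and TMM factors as black diamonds (bars are the SE) and under 5 other scalings as coloured symbols. miR-126-5p is below 0 and miR-222-3p above 0 under every scaling drawn, while the other 6 have symbols on both sides of 0. miR-145-5p did not pass the filter with whole-table totals.

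The arm balance of miR-126 does not depend on the library total, since both arms are counted in the same library. With 95% Wilson intervals in parentheses, the 5p arm made up 8.02% (7.32 to 8.79), 0.670% (0.325 to 1.38) and 0.152% (0.0416 to 0.551) of the miR-126 counts in sheep replicates 1, 2 and 3. In cow replicates 1, 2 and 3 it made up 44.6% (41.4 to 47.8), 44.5% (41.6 to 47.3) and 41.3% (37.7 to 45.1). The 3p arm thus outnumbered the 5p arm by 11.5, 148 and 659 times in sheep, and by only 1.24, 1.25 and 1.42 times in cow. The intervals of the 3 cow libraries overlapped, while the sheep libraries spread widely and none came near the cow values. The mean log2 ratio of 5p over 3p, with 0.5 added to each count, was lower in sheep by a difference of -6.18 (two-sided exact permutation p = 0.1, the smallest possible, or 0.133 adjusted over the 4 balances compared). It was -7.70 without sheep replicate 1 and -4.94 without sheep replicate 3. In the cow table both arms carried miRBase names, whereas the sheep table listed the 3p arm as the mature and the 5p arm as the star form of a hairpin without such a name. Whether reads of these kinds of row were counted alike was not tested.

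Other hairpins gave an arm balance in 1 species only. In sheep the arms of miR-145 were close to even, with the 5p arm at 39.7% (28.5 to 52.0), 41.7% (19.3 to 68.0) and 50.0% (23.7 to 76.3) of both, from few counts in replicates 2 and 3. The 3p arm dominated in the other sheep hairpins. miR-214-5p was 17.2% (7.60 to 34.5) of both arms in sheep replicate 1 and 0 of 60 counts in replicate 2, which allows up to 6.02%, and miR-222-5p had 0, 0 and 1 counts beside 991, 464 and 1022 of the 3p arm, which allow up to 0.386%, 0.821% and 0.552%. In cow, miR-199a-5p was 6.06%, 28.0% and 5.22% of the counts of miR-199a-5p and miR-199a-3p, with cow replicate 2 above the others and the 3p count open to reads of miR-199b.

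**Figure D4:**
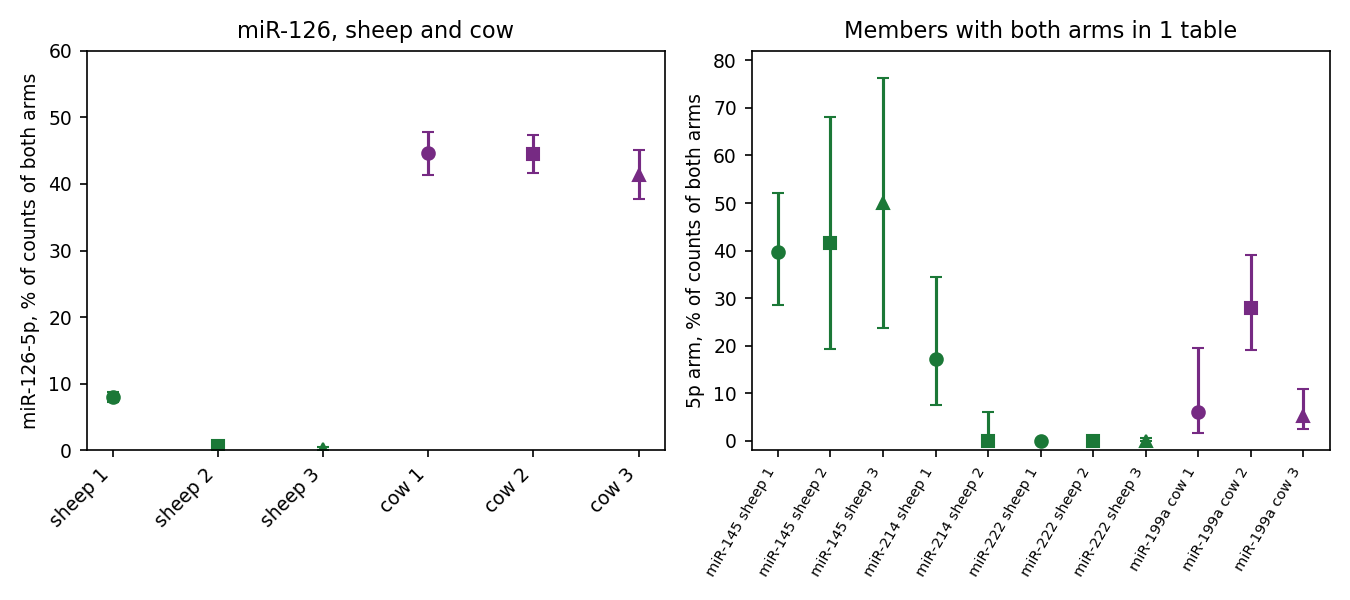
Share of the 5p arm in the counts of both arms (percent, vertical axes) per library, with 95% Wilson intervals as bars, for miR-126 (left) and for hairpins with both arms in 1 table (right; sheep green, cow purple). The 3 cow libraries sit at 41.3% to 44.6% for miR-126 and the 3 sheep libraries at 0.152% to 8.02%.

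The balance between miRNAs of a shared transcript likewise does not depend on the library total. miR-143-3p outnumbered miR-145-5p by 292, 629 and 406 times in sheep and by 45.1 to 149 times in cow, so miR-143 was in excess in every library and more so in sheep. The mean log2 ratio was 8.62 in sheep and 6.34 in cow, a difference of 2.28 with no overlap (exact permutation p = 0.1, adjusted 0.133), but it rests on cow counts of miR-145-5p of 1, 3 and 8. miR-221-3p was 1.42, 2.15 and 0.960 times miR-222-3p in sheep and 6.67, 8.63 and 7.20 times in cow. The pair was thus closer to even in sheep and tilted more to miR-221 in cow, a log2 difference of -2.34 with no overlap (exact permutation p = 0.1, adjusted 0.133). It ranged from -2.64 to -2.05 as each library was left out. miR-199a-3p was 23.1, 5.72 and 154 times miR-214-3p in sheep and 7.75, 1.35 and 7.79 times in cow, with overlap (log2 difference 2.63, exact permutation p = 0.3). With 3 libraries against 3, none of these tests can pass 0.05. In sheep miR-143-3p, miR-199a-3p and miR-221-3p had miRBase names and their partners were rows named by sequence. In cow all of these rows carried miRBase names. Whether reads of these kinds of row were counted alike was not tested.

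**Figure D5:**
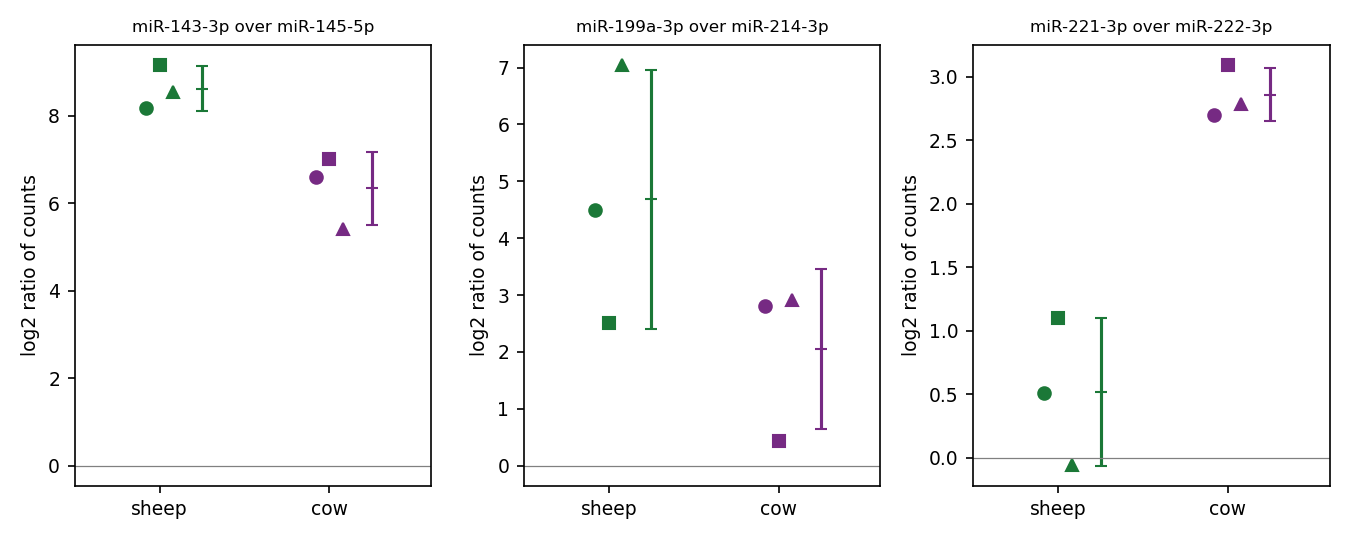
Log2 ratio of counts, with 0.5 added to each, of the 3 pairs made from shared transcripts, by library (sheep green, cow purple; replicates 1 to 3 as circle, square and triangle), with mean and SD beside the points. miR-221-3p over miR-222-3p lies between -0.06 and 1.10 in sheep and between 2.70 and 3.10 in cow; the middle pair overlaps.

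Markers of the other cell types that milk EVs can come from were set beside these values. In sheep replicate 1, where miR-143-3p, both arms of miR-126 and both arms of miR-145 were higher than in the other sheep libraries (3.48, 3.57, 114, 4.83 and 7.35 times for miR-143-3p, miR-126-3p, miR-126-5p, miR-145-5p and miR-145-3p), several lists were also at their highest among sheep libraries. The striated muscle list (3 of 4 with a sheep row, miR-133a without) took 2.64% of the counts there against 0.0537% and 0.0772%, miR-1 alone 2.57%. The red blood cell list (miR-486 only in sheep, miR-144 and miR-451 having no row) took 7.72%, and liver miR-122 took 7.02%, as given above. The platelet list, which includes miR-126, took 0.816% against 0.190% and 0.303%, with miR-191 at 0.335% against 0.140% and 0.179%. The other vascular list took 7.02% against 2.99% and 4.46%, whereas the epithelial list was at its lowest, 25.2% against 64.4% and 40.7%. Not at their highest there were the other stromal list (6.85% against 4.93% and 9.27%) and the leukocyte list (1.54% against 1.28% and 2.23%). miR-199a-3p, miR-221-3p, miR-222-3p and miR-214-3p were at 1.16, 1.39, 0.938 and 0.749 times the higher of the other sheep libraries. The part of these lists in the member values was not tested.

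Between species, the platelet list, which shares miR-126 with the members, was higher in cow. It took 0.190% to 0.816% of the counts in sheep and 1.56% to 5.30% in cow. Of its 4 tested miRNAs, 3 were called higher in cow by edgeR, beside 22.3% of all miRNAs tested. These were miR-126-5p, miR-191 (log2 fold change -5.14) and miR-223 (-4.18), with miR-126-3p not called. miR-223 had 44, 6 and 5 counts in sheep and 18, 119 and 7 in cow, and its share of counts overlapped between species. It is also in the leukocyte list below, where the same call is counted again. Without cow replicate 1 or cow replicate 2 only 1 of the 4 was called, and the miR-223 call was also lost without sheep replicate 2 or 3. miR-191 alone took 1.38% to 5.07% of the cow counts and 0.140% to 0.335% of the sheep counts. In cow, miR-191 held most of the list's counts. The share of the list's other miRNAs overlapped between species only through sheep replicate 1, and was otherwise higher in every cow library. The red blood cell list, in sheep miR-486 only, was at 0.0705% to 7.72% there. In cow, where miR-144 and miR-451 also had rows, it was at 1.53% to 2.76%, with miR-486 alone at 1.08% to 1.79%. miR-486, the only tested miRNA of the list, was not called (-1.07). Without sheep replicate 1 miR-486 was called higher in cow (-4.76, edgeR adjusted p = 1.26e-11). The leukocyte list was at 1.28% to 2.23% in sheep and 0.463% to 0.900% in cow. Of its 7 tested miRNAs, 3, including miR-146a (4.66), were called higher in sheep, beside 32.4% of all tested. In cow 3, including miR-150 (-5.77), were called higher, beside 22.3% of all tested. The part of platelet, red cell or leukocyte RNA in the miR-126 values was not tested.

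The epithelial list stood for mammary and other epithelium. It held 25.2% to 64.4% of the counts in sheep but only 0.121% to 0.243% in cow. Of its 6 tested miRNAs, 5 were called higher in sheep, beside 32.4% of all miRNAs tested. The most abundant by mean CPM over the 6 libraries were miR-148a (log2 fold change 6.78) and miR-375 (6.61). In cow, where most counts lay outside the joined miRNAs, miR-148a had 600, 1217 and 402 counts, more than any member in the same library. The liver and striated muscle miRNAs miR-122 (3.53, edgeR adjusted p = 0.00854) and miR-1 (10.55, from cow counts of only 1, 0 and 1) were called higher in sheep. Without sheep replicate 1 they were at 1.84 and 7.94, both still called, and the miR-122 call was lost without cow replicate 2 (3.37, edgeR adjusted p = 0.0588). miR-206 was not called (3.88, edgeR adjusted p = 0.0580), but was without sheep replicate 2, sheep replicate 3 or cow replicate 3.

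Other miRNAs known from the same compartments were called in either direction, beside 32.4% of all miRNAs tested called higher in sheep and 22.3% in cow. Of 15 other vascular miRNAs, 11 were tested, 4 were called higher in sheep and 3 in cow, and as single libraries were left out 3 to 6 and 1 to 2. By mean CPM over the 6 libraries the most abundant were miR-92a of the miR-17-92 cluster (log2 fold change 1.66 ± 0.47, edgeR adjusted p = 0.0116) and the angiogenic miR-27b (-4.04 ± 0.57, adjusted p = 7.87e-05), although in sheep miR-24-3p and miR-27a-3p were above miR-27b in every library. Of 14 other stromal miRNAs, 10 were tested, 5 were called higher in sheep and 2 in cow, with miR-21-5p (2.41 ± 0.57, edgeR adjusted p = 0.00414) and miR-100 (3.41 ± 0.52, adjusted p = 0.000133) the most abundant by the same mean. In every cow library miR-99a-5p was above both, and it (-4.02) and miR-10b (-2.79) were the stromal miRNAs called higher in cow. The median log2 fold change was 1.66 in the vascular and 0.95 in the stromal list, above the -0.63 of the members. miR-24-3p is in both lists.

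The miRNAs whose pattern over the 6 libraries lay nearest to the leading members were found by the Euclidean distance of centred log2 CPM among the 139 tested. Unlike the CPM given above, these values were scaled to the joined total with TMM factors, as in the edgeR test. For miR-143-3p these were miR-320a (distance 1.44), miR-30a-5p (1.55) and miR-423-3p (1.58). For miR-126-3p they were miR-125a (0.999), miR-10a (1.05), itself in the vascular list, and miR-103 (1.57). For miR-221-3p they were miR-30e-5p (0.452), miR-181a (0.736) and miR-29a (1.25), and its partner miR-222-3p was not among the nearest. The points share library, depth and the join by name, so the distances are a description.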

How the data were processed

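The authors deposited whole-number counts per miRNA row and TPM values, in separate tables for each species. Reads were handled with cutadapt 1.14 and Bowtie, per the submitters' processing notes. The sources used here do not name a counting tool, miRBase release or genome build. The deposited TPM equals the count divided by a constant per library, with no length correction. The members and lists were chosen with earlier results of these data known.

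Rows were joined by mature name. Sheep rows without a miRBase name took, by hand, the name of a textbook mature sequence alike over at least 17 bases, with no reference table of miRNA sequences in use. Such rows of a name were summed, and cow rows, without sequences, could not be treated alike. Of 161 joined miRNAs 101 were joined by sequence and 139 passed filterByExpr (minimum count 10). Counts were tested with edgeR 4.0.16 (quasi-likelihood, TMM factors, library size the joined total, R 4.3.3), and p-values were adjusted by Benjamini-Hochberg and called below 0.05. The SE was derived from the F statistic. The fit was also run on simulated data with as many miRNAs raised as lowered, so that run does not bear on the choice of scale. Shares and ratios were compared with two-sided exact permutation tests, ratios with 0.5 added to each count and only where both counts together reached 10. CPM uses all miRNA counts of a library as its total, except in the pattern distances, which use the joined total with TMM factors. Reads of close relatives such as miR-221 and miR-222 may be split by the counting.

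All member rows are named, with the 3 miRNAs nearest in pattern to miR-143-3p, miR-126-3p and miR-221-3p and the 2 most abundant tested miRNAs of each marker list. miR-205, miR-223, miR-24-3p, miR-27a-3p, miR-99a-5p and miR-10b were named after their values were seen. Alternatives were DESeq2 1.42.0, other factors, totals, filters and joins, limma 3.58.1 on log2(TPM + 1) and log2(TPM + 10), a replicate block, other pseudocounts and each library left out. Whole-table totals with no factors were added after seeing the data. The replicate numbers did not pair the libraries: same-numbered deviations correlated at -0.0242, 0.156 and -0.0206.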

Additional observations from a re-analysis of the deposited data

How the results depend on the processing

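The number of members called higher in sheep, 1 as reported, was 0 with no normalization factors, 4 with limma on log2(TPM + 1), 4 on log2(TPM + 10) and 2 on whole-table totals with no factors, an alternative chosen after seeing the data. With the replicate block it was 0, with miR-222-3p at 2.28 (edgeR adjusted p = 0.0829), miR-126-5p was at -7.62, and no other member's call changed; the libraries share only a number. The number called higher in cow, also 1, was 0 with DESeq2 (which gave miR-126-5p, at -4.48, no adjusted p), 0 on log2(TPM + 10) and 0 on whole-table totals with no factors. With miRBase names only, both numbers were 0. That join tested only 3 members, miR-143-3p, miR-199a-3p and miR-221-3p, so miR-222-3p and miR-126-5p could not be called. As each library was left out, either number ranged from 0 to 1. Over all tested miRNAs, the calls higher in sheep and in cow were 45 and 31 as reported, 23 and 35 with no factors, 52 and 23 on whole-table totals, 60 and 15 on those with no factors, 84 and 8 on log2(TPM + 1), 63 and 6 on log2(TPM + 10), and 11 and 12 of 51 with miRBase names only.

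The member share turned from a log2 ratio of 1.03 to -1.21 against the joined total, was 2.66 in TPM and 0.32 from miRBase rows only, and ranged from 0.19 to 1.42 as each library was left out. The signs of fold changes that passed no test as reported turned as follows. With no factors miR-143-3p was at -0.14. On log2(TPM + 1) miR-145-5p was at 0.50, miR-199a-3p 2.61, miR-214-3p 0.26, miR-126-3p 1.78 and miR-221-3p 2.75; on log2(TPM + 10) they were at 0.0937, 1.55, 0.0729, 1.61 and 2.04. On whole-table totals with no factors miR-199a-3p was at 1.21, miR-126-3p 0.71 and miR-221-3p 1.144. miR-199a-3p was at 0.25 on whole-table totals, 0.0771 with no filter and 0.27 with miRBase names only. miR-221-3p was at 0.10 with DESeq2, 0.0290 with upper-quartile factors, 0.10 with RLE factors, 0.35 on whole-table totals, 0.10 with no filter and 0.24 with miRBase names only. As each library was left out, miR-199a-3p ranged from -0.48 to 0.92, miR-221-3p from -0.23 to 0.64, miR-214-3p from -3.42 to -1.06 and miR-145-5p, over the 3 cow libraries, from -1.94 to -0.06. The cause was not tested, beyond that scaling shifts the median miRNA: by -0.82 with no factors, 0.26 with upper-quartile and 0.32 with RLE factors, and 0.58 on whole-table totals.

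The arm balance of miR-126 ranged from -7.70 to -4.94 as each library was left out and was -5.46 with 5 added to each count. miR-143-3p over miR-145-5p ranged from 1.82 to 2.61 and miR-199a-3p over miR-214-3p from 1.45 to 3.73. The 3 libraries a group limit precision, and cow counts of 1 to 46 for miR-145-5p, miR-214-3p and miR-222-3p leave their fold changes wide.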
